A study of Arabidopsis thaliana with 12 samples.

Results

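The transcript levels of 2 Arabidopsis single mutants, phyb and sco3, were compared across all genes of the Affymetrix ATH1 array, and each mutant was also set against the reference line Col-0. The comparison used the 3 phyb and the 3 sco3 arrays, 6 of the 12 arrays of the series, with the 3 Col-0 arrays as the reference level. The remaining 3 arrays, of the double mutant sco3phyb, added to the estimate of the spread and are otherwise cited only where named. All seedlings were 4 days old and grew on agar in long days (16 h of light, then 8 h of darkness), and each array held RNA of whole seedlings from a separate biological replicate. The labels name the mutants by gene without an allele, mutagen or background for phyb or sco3, and they name no treatment. The annotation gave no probe set to SCO3 (AT3G19570) or PHYB (AT2G18790), so the transcripts of the mutated genes, and with them the labels, were not checked here.

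PHYB encodes phytochrome B, a photoreceptor that switches between a red-absorbing and a far-red-absorbing form. In its active form it enters the nucleus, removes growth-promoting PIF transcription factors and so holds back elongation while the chloroplasts develop. SCO3 (SNOWY COTYLEDON 3) encodes a protein that has been placed at peroxisomes and microtubules, and its loss leaves the cotyledons pale while true leaves green. Both genes thus bear on the greening of the seedling.

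Of 69 plastid-encoded genes 43 were lower in phyb than in sco3, as were 7 of 10 tetrapyrrole enzymes and 4 of 6 genes of branched-chain amino acid breakdown. In the other direction, 4 of 4 shade-induced genes, 6 of 7 tubulins, 5 of 9 flavonoid enzymes and 12 of 27 cell wall loosening enzymes were higher in phyb, while 3 of those 27 were lower. Of 22746 probe sets, 9152 (40.2%) were called in phyb against sco3, 4380 (19.3%) of them higher in phyb and 4772 (21.0%) lower. A call is an adjusted p under 0.05 in limma's moderated test with Benjamini-Hochberg adjustment over all probe sets, and errors given after a difference are its moderated standard errors with n = 3 arrays per genotype. Differences of at least 2-fold were more often higher in phyb, with 1508 probe sets against 846 lower. At least 4-fold, 452 probe sets differed. The 3 phyb values did not overlap with the 3 sco3 values in 8946 of the called probe sets, and in 12616 (55.5%) of all probe sets.

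Scale entered these counts. The median signal of the phyb arrays lay 0.19 above that of the sco3 arrays on the log2 scale, and the median difference over probe sets was -0.08. After every array had been centred on its own median, that median difference became -0.27 and 24.5% of the calls were higher in phyb, in place of 47.9%. Where centred counts of a list follow the uncentred ones below, they are to be read against 13.6% of all probe sets higher and 42.1% lower in phyb. Plastid-encoded, tetrapyrrole, plastid ribosomal, branched-chain, seed oil and stomatal genes are counted below on the deposited scale alone. On that scale 21.0% of all probe sets were lower in phyb. The array medians ran from 4.53 to 4.74 over the series, and Col-0 replicate 3 stood apart from its group, with a mean correlation of 0.978 across probe sets against 0.986 for both other Col-0 arrays. In whole seedlings, fewer cells of a type and less RNA per cell cannot be told apart.

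The endoglucanase gene GH9B8 (AT2G32990), of the plant cellulase family, read 8.86, 8.64 and 8.77 in phyb against 3.94, 3.49 and 3.53 in sco3 (log2 signal). Col-0 read 4.20, 3.86 and 3.80, so of these genotypes phyb alone stood high. The difference was 5.10 ± 0.18 on the log2 scale, or 34.4-fold (adjusted p = 2.47e-09). EXPB3 (AT4G28250), an expansin that loosens cell walls, read 8.54, 8.66 and 8.90 in phyb and 4.81, 4.47 and 4.00 in sco3, a difference of 4.27 ± 0.33 (adjusted p = 8.74e-07). Its Col-0 values of 5.26, 5.27 and 3.76 spanned those of sco3. BCAT4 (AT3G19710), an aminotransferase that opens the synthesis of methionine-derived glucosinolates, read 6.86, 6.10 and 6.75 in phyb, 3.27, 2.65 and 2.82 in sco3 and 2.94, 2.85 and 2.77 in Col-0. Of these genotypes phyb alone was thus high, by 3.66 ± 0.19 over sco3 (adjusted p = 4.28e-08). In the double mutant, 2 of the 3 measured glucosinolate genes were also called higher than in Col-0, beside 16.8% of all probe sets. The 10 largest differences in this direction ran from 3.88 to 5.27, and those of AT4G11190, AT5G44440 and GH9C2 (AT1G64390), another endoglucanase, were 5.27 ± 0.52, 4.72 ± 0.27 and 4.39 ± 0.19.

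In the other direction, AT3G55920 read 1.95, 2.04 and 1.97 in phyb and 6.56, 6.32 and 6.39 in sco3, a difference of -4.44 ± 0.12 (adjusted p = 4.22e-10). Col-0 was at 6.51, 6.36 and 6.62 and the double mutant at 6.48, 6.42 and 6.73, so the 3 phyb arrays were the low ones and the arrays labelled sco3phyb did not share the loss. MCCA (AT1G03090), which encodes part of a carboxylase in leucine breakdown, read 7.22, 6.73 and 6.40 in phyb and 10.67, 10.88 and 11.08 in sco3. Col-0 (10.47, 10.93 and 11.01) overlapped with sco3, and phyb lay below both, with a difference from sco3 of -4.09 ± 0.20 (adjusted p = 2.19e-08). QQS (AT3G30720), which affects how carbon is divided between starch and protein, read 5.15, 4.86 and 4.89 in phyb, 8.99, 8.87 and 9.02 in sco3 and 8.31, 8.24 and 8.19 in Col-0. Here the 3 genotypes did not overlap and Col-0 lay between the mutants, which differed by -3.99 ± 0.11. The 10 largest differences in this direction ran from -4.44 to -3.54.

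**Figure D1:**
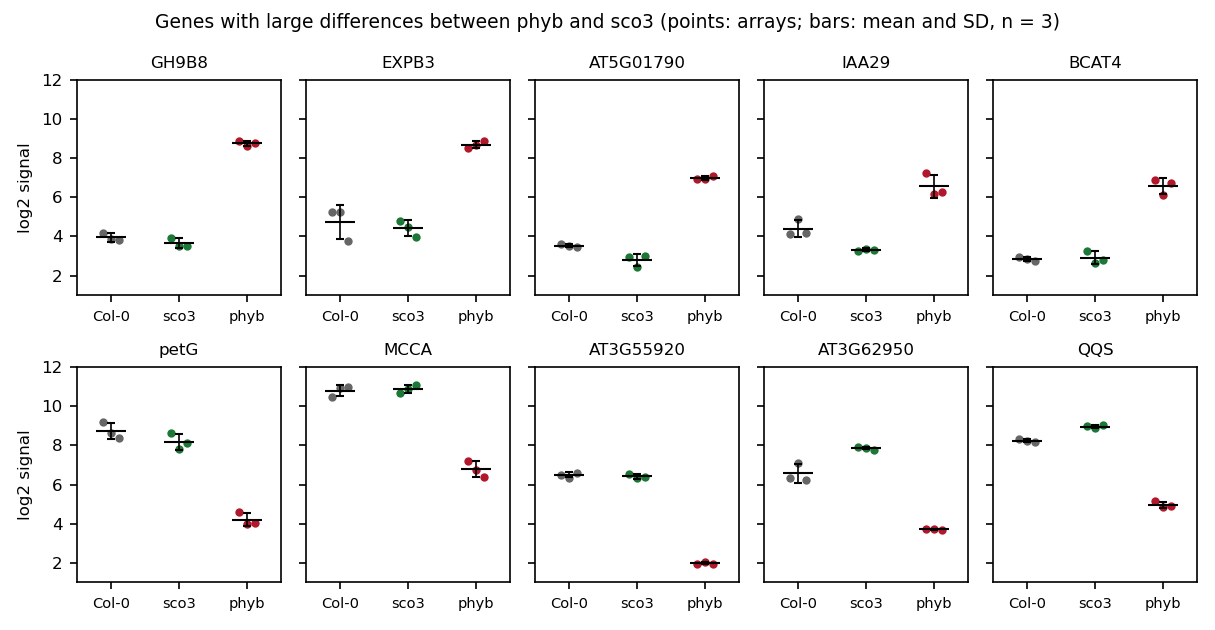
Log2 signal of 10 genes on the Col-0, sco3 and phyb arrays, with each array as a point and the mean and SD (n = 3) as a bar. Points of phyb lie above all others for the 5 genes of the upper row and below all others for those of the lower row, and for IAA29, AT5G01790, QQS and AT3G62950 the sco3 points lie on the far side of Col-0.

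Plastid-encoded genes, the largest group described here, held the most members lower in phyb but not the highest share. Among other lists of at least 3 members, nuclear plastid ribosomal proteins (3 of 3) and tetrapyrrole synthesis (7 of 10) had higher shares. So did branched-chain amino acid breakdown (4 of 6) and stomatal lineage markers (2 of 3). Of 69 measured plastid genes, 43 were lower in phyb than in sco3, 2 were higher and 24 were not called, with a median difference of -0.69 against -0.10 over all 13355 named genes, where 37.9% were called (16.9% higher and 21.0% lower in phyb). Against Col-0, 44 of the 69 were lower in phyb (15.9% of all probe sets) and 2 in sco3 (2.16%). Photosystem I, which reduces ferredoxin, had 4 of 5 genes lower. psaC, for its iron-sulphur subunit, read 4.33, 3.68 and 3.73 in phyb, 7.70, 6.65 and 7.67 in sco3 and 7.41, 7.50 and 8.05 in Col-0. The phyb arrays were all low and sco3 overlapped with Col-0, and the mutants differed by -3.43 ± 0.29 (adjusted p = 1.91e-06). psaA, for a core protein, differed by -2.82 ± 0.45 and psaJ by -2.03 ± 0.20. psaI differed by -0.69 ± 0.20, with a call that was lost without sco3 replicate 1 or phyb replicate 3 (adjusted p = 0.0654 and 0.061).

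Photosystem II, which splits water, had 12 of 15 genes lower in phyb and none higher, with a median of -0.68. The reaction centre gene psbD differed by -2.32 ± 0.38, psbH by -2.13 ± 0.23, psbN by -1.94 ± 0.30 and the inner antenna gene psbB by -1.90 ± 0.32. In the list of the cytochrome b6f complex, the ATP synthase and Rubisco, 8 of 13 were lower and 2 higher, the latter being the ATP synthase genes atpA (0.47 ± 0.13) and atpH (0.71 ± 0.24), which were not called after centring. The call of atpH was also lost without any 1 phyb array or without sco3 replicate 2 or 3 (adjusted p from 0.063 to 0.124). petG, a small subunit of the cytochrome b6f complex, read 4.61, 3.97 and 4.06 in phyb against 8.64, 7.83 and 8.14 in sco3 and 9.20, 8.63 and 8.37 in Col-0. Its low values were those of phyb, and it differed by -3.99 ± 0.29 (adjusted p = 5.16e-07), followed by petL (-2.56 ± 0.32) and petD (-2.39 ± 0.31).

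rbcL, for the large subunit of Rubisco, read 9.99, 9.74 and 9.82 in phyb, 11.37, 10.79 and 10.89 in sco3 and 10.86, 10.72 and 9.78 in Col-0. The mutants did not overlap and differed by -1.17 ± 0.26 (adjusted p = 0.00372), although neither passed against Col-0, whose replicate 3 read as low as phyb. Of 10 genes of the NDH complex, which cycles electrons around photosystem I, 5 were lower in phyb, among them ndhG (-2.27 ± 0.27), ndhH (-2.13 ± 0.36) and ndhE (-2.12 ± 0.23). Of 26 plastid genes of gene expression and housekeeping, 14 were lower, led by the ribosomal protein gene rpl20 (-2.59 ± 0.32), the photosystem I assembly gene ycf4 (-2.13 ± 0.33) and accD (-1.85 ± 0.25) of fatty acid synthesis. Of 15 genes of the mitochondrial genome, 6 were lower in phyb, such as nad5 (-1.19 ± 0.24) of respiratory complex I, and 3 higher, such as nad4 (0.70 ± 0.19) of the same complex. These counts depended on scale, with 11 lower and 2 higher after centring and 4 lower and 1 higher after further quantile normalization. The nad4 call was lost without sco3 replicate 2 (adjusted p = 0.0503).

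The few measured nuclear genes of the photosynthetic apparatus did not share this pattern on the deposited scale. None of the 3 antenna genes, 5 nuclear photosystem and ATP synthase subunits and 4 Calvin cycle genes was called, with medians of -0.06, -0.03 and 0.02. After centring, 2, 2 and 0 of them were called lower in phyb. LHCB4.1 (AT5G01530), a minor antenna protein, read 12.39, 12.33 and 12.29 in phyb and 12.36, 12.43 and 12.40 in sco3, so the groups overlapped and differed by -0.06 ± 0.09 (adjusted p = 0.631, or 0.0409 after centring).

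Tetrapyrrole synthesis, the route to chlorophyll and haem, had 7 of 10 genes lower in phyb than in sco3 and 1 higher, with a median of -0.78. HEME2 (AT2G40490), a uroporphyrinogen decarboxylase, read 8.39, 8.53 and 8.56 in phyb, 9.72, 9.81 and 9.61 in sco3 and 9.38, 9.44 and 8.67 in Col-0. Its sco3 values were the highest and its phyb values the lowest, without overlap, and the mutants differed by -1.22 ± 0.18 (adjusted p = 0.000212). Against Col-0 the phyb change of -0.67 was called and the sco3 change of 0.54 was not (adjusted p = 0.107), while the phyb call was lost without Col-0 replicate 1 or 2 (adjusted p = 0.054 and 0.0568). CHLI2 (AT5G45930), of the magnesium chelatase that commits the pathway to chlorophyll, differed by -1.15 ± 0.18 and HEME1 (AT3G14930) by -1.14 ± 0.23. The exception, PORB (AT4G27440), a light-dependent protochlorophyllide reductase, read 8.62, 9.13 and 9.09 in phyb against 7.53, 7.98 and 7.90 in sco3 and was higher in phyb by 1.14 ± 0.25 (adjusted p = 0.00315). All 3 measured nuclear genes for plastid ribosomal proteins were lower in phyb, by between -0.95 and -0.64 on the log2 scale. Of 13 genes of chloroplast RNA processing and NDH biogenesis, OTP81 (1.11 ± 0.14) was higher, OTP85 (-0.73 ± 0.12) was lower and 11 were not called. After centring 1 and 6 were called, beside 13.6% of all probe sets higher and 42.1% lower in phyb.

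**Figure D2:**
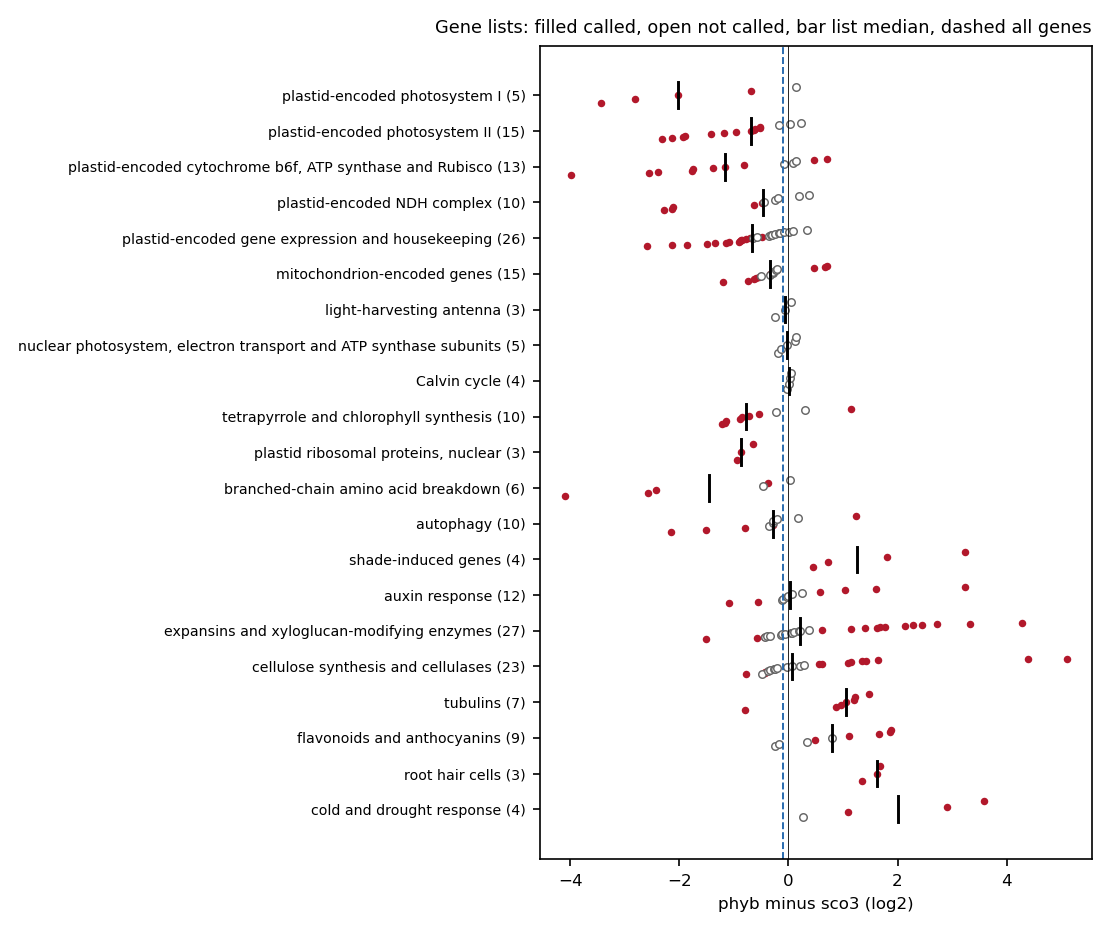
Difference between phyb and sco3 (log2, phyb minus sco3) of each measured member of 21 gene lists, with the number of members in brackets. Filled points were called, open points were not, the bar is the list's median and the dashed line is the median of all named genes, -0.10. Plastid-encoded lists reach far to the left, the antenna, nuclear photosystem and Calvin cycle lists sit near the dashed line, and shade, cell wall, tubulin and flavonoid genes reach to the right.

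Shade-induced genes, which phytochrome B holds down in light, were higher in phyb in 4 of 4 measured cases. IAA29 (AT4G32280), a repressor of the auxin pathway that auxin itself induces, read 7.24, 6.19 and 6.26 in phyb, 3.25, 3.38 and 3.33 in sco3 and 4.12, 4.89 and 4.16 in Col-0. All sco3 values lay below Col-0 and all phyb values above it, and the mutants differed by 3.24 ± 0.31 (adjusted p = 4.99e-06). The sco3 change of -1.07 against Col-0 was not called (adjusted p = 0.0654), but it was without phyb replicate 1 (adjusted p = 0.0367). HAT2 (AT5G47370), a homeodomain factor, differed by 1.81 ± 0.20. The differences of FHL (AT5G02200) and AT4G25260 were 0.72 ± 0.23 and 0.45 ± 0.11, and neither was called after centring (adjusted p = 0.0667 and 0.0655). The call of FHL was also lost without sco3 replicate 1, sco3 replicate 3 or phyb replicate 1 (adjusted p from 0.0687 to 0.102). Of 12 auxin-response genes, 4 were higher in phyb and 2 lower, or 3 and 2 after centring. IAA29 is a member of both lists, so the shade and auxin counts are not separate. GH3.3 (AT2G23170) and WES1 (AT4G27260), which conjugate auxin to amino acids, were higher by 1.60 ± 0.19 and 1.04 ± 0.18, and the repressor gene IAA18 (AT1G51950) was lower by 1.08 (-1.08 ± 0.16).

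Among expansins and xyloglucan-modifying enzymes, which loosen and remodel the growing wall, 12 of 27 were higher in phyb and 3 lower, or 11 and 6 after centring. Besides EXPB3, the expansin-like gene EXLB1 (AT4G17030) differed by 3.33 ± 0.18, EXPA8 (AT2G40610) by 2.45 ± 0.22 and XTH32 (AT2G36870) by 2.14 ± 0.24, while EXPA16 (AT3G55500) was lower in phyb (-1.52 ± 0.26). Of 23 genes of cellulose and other wall glucan synthesis and of cellulases, 9 were higher and 4 lower, or 8 and 9 after centring. Tubulins, the subunits of microtubules, were higher in phyb in 6 of 7 cases, also after centring. TUB9 (AT4G20890) read 8.65, 8.56 and 8.77 in phyb, 7.21, 7.24 and 7.11 in sco3 and 7.44, 7.51 and 7.53 in Col-0. The 3 genotypes did not overlap, and the mutants differed by 1.48 ± 0.10 (adjusted p = 2.29e-07), followed by TUA6 (AT4G14960, 1.23 ± 0.15) and TUB7 (AT2G29550, 1.21 ± 0.11). TUA1 (AT1G64740) was lower in phyb (-0.79 ± 0.15).

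Of the 3 measured root hair markers all were higher in phyb than in sco3, with differences from 1.35 to 1.68. EXPA7 (AT1G12560), an expansin of root hair cells, read 6.63, 6.83 and 6.61 in phyb and 5.22, 5.60 and 4.36 in sco3, against 5.81, 5.85 and 7.38 in Col-0. The mutants did not overlap, while Col-0 overlapped with phyb through its replicate 3, and neither mutant was called against Col-0. EXPA7 is also a member of the expansin list above and GH9C1 of the cellulase list, so these counts are not separate. The part of root hair cells in the cell wall result was not tested. The third marker, GH9C1 (AT1G48930), lost its call without sco3 replicate 3 or phyb replicate 2 (adjusted p = 0.0819 and 0.0743). Of 3 stomatal lineage markers, with differences from -0.61 to -0.29, 2 were called lower in phyb. The lists for vascular tissue and epidermis had no named member.

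Flavonoid and anthocyanin enzymes were higher in phyb in 5 of 9 cases and lower in none, or 4 and 2 after centring. UGT78D1 (AT1G30530), a flavonol rhamnosyltransferase, read 7.56, 7.34 and 7.51 in phyb and 5.83, 5.53 and 5.44 in sco3, with Col-0 at 5.94, 5.56 and 5.28. Here sco3 overlapped with Col-0 and phyb stood above both, by 1.87 ± 0.16 over sco3 (adjusted p = 1.75e-06). DFR (AT5G42800), a reductase of anthocyanin synthesis, differed by 1.88 ± 0.26 and CHIL (AT5G05270), a helper of chalcone isomerisation, by 1.66 ± 0.24. Among glucosinolate genes the transporter gene GTR1 (AT3G47960) followed BCAT4 with 1.58 ± 0.18. COR15A (AT2G42540), a cold-induced protein that protects plastid membranes, read 4.55, 7.79 and 7.79 in phyb and 3.13, 3.38 and 2.88 in sco3. Phyb replicate 1 lay far below the other phyb arrays, and all 3 were above sco3, with a difference of 3.58 ± 0.62 (adjusted p = 0.00059). The clock gene GI (AT1G22770) was higher in phyb by 1.13 ± 0.29 (adjusted p = 0.00844).

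In branched-chain amino acid breakdown 4 of 6 genes were lower in phyb, and after MCCA came MCCB (AT4G34030), the other subunit of the carboxylase, with -2.58 ± 0.16, and IVD (AT3G45300), the isovaleryl-CoA dehydrogenase, with -2.43 ± 0.16. The fourth, AT2G26800, differed by -0.38 ± 0.14 and lost its call without Col-0 replicate 2 (adjusted p = 0.0506), without sco3 replicate 2 or 3, or without any 1 phyb array (adjusted p from 0.0718 to 0.172). Of 5 genes of seed oil mobilisation 2 were lower in phyb, 1 was higher and 2 were not called, with differences from -1.77 to 1.56. SDP1 (AT5G04040), the lipase that starts seed oil breakdown, read 6.60, 6.70 and 6.67 in phyb and 8.27, 8.49 and 8.51 in sco3. Col-0 (8.34, 8.60 and 8.28) overlapped with sco3, and the difference was -1.77 ± 0.11 (adjusted p = 2.17e-07). Of 10 autophagy genes 4 were lower in phyb and 1 higher, or 8 and 1 after centring. The ATG8 genes, whose products coat autophagosomes, included ATG8E (AT2G45170) at -2.15 ± 0.15 and ATG8F (AT4G16520) at -1.52 ± 0.13, against ATG8D (AT2G05630) at 1.24 ± 0.15.

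Most probe sets that differed between the single mutants were called against Col-0 in phyb and not in sco3. Of the 9152 called probe sets, 5548 (60.6%) were called against Col-0 in phyb alone, 457 (4.99%) in sco3 alone, 87 in both the same way and 218 in both opposite ways. A missing call does not show that sco3 equalled Col-0: IAA29 and HEME2 count under phyb alone, with sco3 changes of -1.07 and 0.54. The remaining 2842 (31.1%) were called against Col-0 in neither mutant, as rbcL, HEME1 and EXPA7 were. Against Col-0, 7606 probe sets (33.4%) were called in phyb and 1130 (4.97%) in sco3, with 2.81% higher and 2.16% lower in sco3, on the same 3 Col-0 arrays. Leaving out sco3 replicate 1, 2 or 3 brought the sco3 count to 488, 526 or 396, and the 457 became 166 to 646 when 1 array was left out.

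Genes called against Col-0 in sco3 alone are shown by 2 examples chosen after their values were seen. UGT71C1 (AT2G29750), a glycosyltransferase of flavonoids, read 4.33, 4.72 and 4.48 in sco3, 6.15, 6.26 and 6.22 in phyb and 5.56, 5.43 and 6.38 in Col-0. The sco3 arrays were the low ones, by 1.28 below Col-0 (-1.28 ± 0.21), and the mutants differed by 1.70 ± 0.21 (adjusted p = 3.79e-05). CCS (AT1G12520), the chaperone that loads copper into superoxide dismutase, read 8.98, 9.29 and 9.20 in sco3, 8.26, 7.72 and 7.72 in phyb and 8.28, 8.14 and 8.17 in Col-0. Of these genotypes sco3 alone was high, and the single mutants differed by -1.26 ± 0.14 (adjusted p = 2.36e-05).

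**Figure D3:**
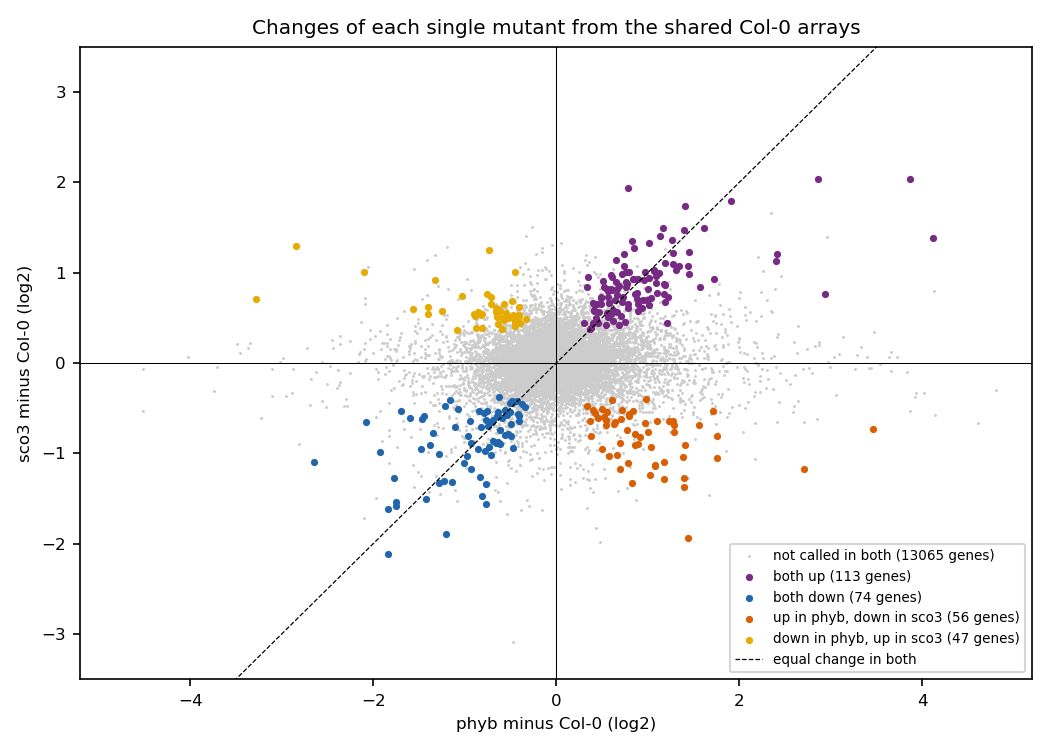
Change from Col-0 in phyb (horizontal axis, log2) and in sco3 (vertical axis, log2) of the 13355 named genes, with the genes called in both mutants coloured by direction. Both changes are taken from the same Col-0 arrays, which by itself draws points along the dashed line of equal change. The cloud is wide along the phyb axis and narrow along the sco3 axis, and of the coloured genes 187 moved the same way and 103 opposite ways.

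Both mutants moved 600 probe sets, 382 (1.68%) the same way, 248 up and 134 down, and 218 (0.958%) opposite ways. The same-way probe sets were 5.02% of the phyb calls and 33.8% of the sco3 calls, and the opposite ones 2.87% and 19.3%. Since the shared Col-0 arrays pull both changes the same way, these counts are descriptions without a test. No probe set passed from one class to the other under any alternative fitted, but the counts moved: leaving out 1 array gave 161 to 544 same-way and 60 to 222 opposite probe sets, and leaving out the double mutant gave 176 and 90. Leaving out sco3 replicate 1, 2 or 3 brought the opposite count to 125, 93 or 60 and the same-way count to 165, 180 or 161. Leaving out phyb replicate 2 or 3 brought the opposite count to 137 or 140, and phyb replicate 3 the same-way count to 250.

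Of the 290 named genes in these classes, 58 kept both calls without any 1 of the 9 arrays, 40 of them moved the same way and 18 opposite ways. Apart from OSM34 and XTH19, the genes described next were picked from these 58 after their values were seen. By size, the 24 genes with the largest smaller-of-the-2 changes, 6 per direction, kept both calls in 8 cases. OSM34 (AT4G11650), an osmotin-like protein, headed those lower in both, with changes of -1.84 in phyb and -2.11 in sco3, but its sco3 call was lost without sco3 replicate 1, 2 or 3 (adjusted p = 0.0781, 0.0782 and 0.0563).

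Genes raised by both mutants included some for plastid proteins. Cpn60beta2 (AT3G13470), a subunit of the plastid chaperonin that folds Rubisco, read 8.71, 8.76 and 9.01 in phyb, 7.74, 7.63 and 7.48 in sco3 and 6.86, 6.46 and 5.92 in Col-0. The 3 genotypes did not overlap: the change was 2.42 ± 0.19 in phyb and 1.20 ± 0.19 in sco3, and phyb exceeded sco3 by 1.21 ± 0.19 (adjusted p = 0.000259). GSA1 (AT5G63570), an aminomutase of early tetrapyrrole synthesis, read 7.21, 7.32 and 7.46 in phyb, 7.58, 7.56 and 7.50 in sco3 and 7.04, 6.71 and 6.45 in Col-0. Both mutants lay above Col-0, by 0.60 ± 0.15 and 0.81 ± 0.15, and they differed from each other by -0.22 ± 0.15 without a call (adjusted p = 0.252, or 0.0345 after centring). The plastid NDH complex depends on CRR28 (AT1G59720) and on CRR41 (AT1G51100), which rose by 0.61 ± 0.16 and 0.65 ± 0.15 in phyb and by 0.95 ± 0.16 and 0.89 ± 0.15 in sco3. Their direct differences of -0.34 and -0.24 were not called (adjusted p = 0.113 and 0.222), but they were after centring (0.0184 and 0.0324), and that of CRR28 without Col-0 replicate 3 (0.0484).

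Among the genes that kept both calls, AT5G42760 had the largest joint rise by its smaller change, with 8.06, 7.59 and 7.49 in phyb, 7.13, 6.55 and 6.98 in sco3 and 5.74, 4.45 and 4.36 in Col-0. All phyb values exceeded all sco3 values, but the difference of 0.82 ± 0.34 was not called (adjusted p = 0.0678), but it was without Col-0 replicate 1 or 3 (adjusted p = 0.0148 and 0.0443). AT3G21670, annotated as NPF6.4 of the nitrate and peptide transporter family, read 8.83, 8.85 and 8.81 in phyb and 8.94, 8.82 and 8.94 in sco3 against 8.10, 7.65 and 6.54 in Col-0, and the mutants overlapped. Some joint changes were unequal. AT2G27420 rose by 4.12 ± 0.25 in phyb and 1.38 ± 0.25 in sco3, and AT3G16175 by 0.79 ± 0.20 and 1.94 ± 0.20, with direct differences of 2.74 ± 0.25 and -1.15 ± 0.20 (adjusted p = 3.94e-06 and 0.000543).

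Among genes lowered by both, bHLH121 (AT3G19860), a transcription factor of the iron response, read 6.14, 6.02 and 5.91 in phyb, 6.39, 6.66 and 6.54 in sco3 and 7.62, 8.05 and 7.73 in Col-0. It fell by 1.78 (-1.78 ± 0.14) in phyb and by 1.27 (-1.27 ± 0.14) in sco3, and the mutants differed by -0.50 ± 0.14 (adjusted p = 0.0139), a call lost without sco3 replicate 2 or phyb replicate 3 (adjusted p = 0.0538 and 0.0562). HDA15 (AT3G18520), a histone deacetylase, read 5.79, 5.81 and 5.87 in phyb, 5.52, 5.92 and 5.48 in sco3 and 6.75, 6.72 and 6.36 in Col-0. Its mutants overlapped and differed by 0.19 ± 0.14 (adjusted p = 0.298), a difference whose sign turned after centring. The photosystem II gene psbK, encoded in the plastid, was at 10.33, 10.33 and 10.31 in phyb, 10.15, 10.08 and 10.04 in sco3 and 11.08, 10.76 and 10.81 in Col-0. Both mutants were below Col-0, and they did not differ by a call (0.23 ± 0.12, adjusted p = 0.156), unlike the other photosystem II genes named above.

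The opposite class held the genes that placed Col-0 between the mutants. All 218 opposite probe sets were called in phyb against sco3, which their definition makes likely, with a median absolute difference of 1.53, and in 203 of them the 9 values of the 3 genotypes did not overlap. AT3G13610, annotated as F6'H1, a hydroxylase of coumarin synthesis, read 6.96, 7.49 and 6.94 in phyb, 3.73, 3.75 and 3.80 in sco3 and 5.24, 5.37 and 6.46 in Col-0. Its sco3 values were tight and low and its phyb values high, with changes of 1.44 ± 0.27 in phyb and -1.93 ± 0.27 in sco3. SCPL27 (AT3G07990), a serine carboxypeptidase-like protein, was at 6.24, 6.10 and 6.0 in phyb, 4.05, 3.90 and 4.25 in sco3 and 4.88, 4.82 and 4.80 in Col-0. JAL22 (AT2G39310), a jacalin-related lectin, was at 9.61, 9.89 and 9.56 in phyb, 8.02, 8.12 and 7.94 in sco3 and 8.88, 8.77 and 8.81 in Col-0. Neither gene had overlapping genotypes, and phyb exceeded sco3 by 2.05 ± 0.11 and 1.66 ± 0.11 (adjusted p = 4.7e-08 and 3.21e-07).

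AT5G01790 rose from 3.60, 3.51 and 3.48 in Col-0 to 6.94, 6.95 and 7.11 in phyb and was at 2.94, 2.44 and 3.01 in sco3, so that the mutants differed by 4.20 ± 0.14 (adjusted p = 1.83e-09). XTH19 (AT4G30290), a xyloglucan-modifying enzyme, changed by 1.0 ± 0.16 in phyb and -0.77 ± 0.16 in sco3, and its sco3 call was lost without sco3 replicate 1 (adjusted p = 0.0644). The reverse pattern, down in phyb and up in sco3, was kept by 5 genes: QQS, AT3G62950, AT2G35170, AT5G58090 and AT5G16980. AT3G62950 was at 3.74, 3.73 and 3.70 in phyb, 7.91, 7.88 and 7.79 in sco3 and 6.34, 7.12 and 6.24 in Col-0, a difference of -4.14 ± 0.18 (adjusted p = 1.2e-08). AT2G35170 was at 4.04, 4.14 and 4.18, at 6.11, 6.43 and 6.53 and at 5.45, 5.46 and 5.41 in the same order, again without overlap.

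**Figure D4:**
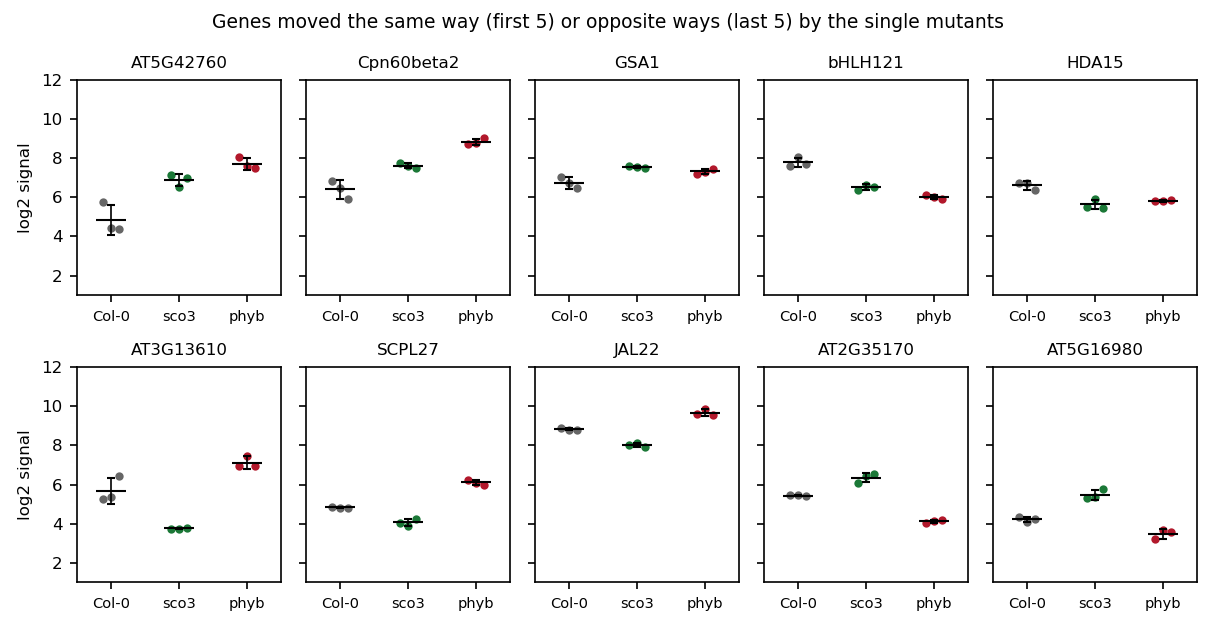
Log2 signal of 10 genes called against Col-0 in both mutants, with each array as a point and the mean and SD (n = 3) as a bar. In the upper row phyb and sco3 lie on the same side of Col-0, with phyb of Cpn60beta2 at 8.71 to 9.01 against 7.48 to 7.74 in sco3, and in the lower row Col-0 lies between them.

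Position along the chromosomes was read because each mutation lies in its own stretch of genome. SCO3 lies on chromosome 3 at 6797471 to 6801835 and PHYB on chromosome 2 at 8139756 to 8144461 (TAIR10.1). Chromosome 3 held 20.6% of the 13216 placed genes, 19.9% of those called in phyb against sco3 through phyb alone, and 31.8% of those called through sco3 alone (87 of 274). It held 37.5% of the genes up in phyb and down in sco3 (21 of 56) and 33.8% of the placed genes down in both (24 of 71), against 23.9% of those up in both (27 of 113) and 27.7% of those down in phyb and up in sco3 (13 of 47). Among genes that kept both calls without any 1 array, it held 9 of 13, 10 of 12, 9 of 27 and 2 of 5 in the same order. Of the genes named above as moved by both mutants, AT3G13610, SCPL27, QQS, AT3G62950, bHLH121, HDA15, Cpn60beta2, AT3G21670 and AT3G16175 lie there. Of the others named above, BCAT4, AT3G55920, EXPA16, GTR1, IVD and HEME1 do, and the start of BCAT4 lies 49.5 kb from that of SCO3. Of the genes moved by both mutants, bHLH121, HDA15, AT3G21670 and AT3G16175 lie within 300 measured genes of SCO3. For BCAT4 and AT3G55920 the sco3 values overlapped with Col-0, and of Col-0, sco3 and phyb only phyb stood apart.

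In the stretch of 300 measured genes on each side of SCO3, 273 of 600 genes (45.5%) were called in phyb against sco3, against 37.4% elsewhere, and 54 (9.0%) in sco3 against Col-0, against 4.36% elsewhere. The stretch around PHYB did not stand out in that direction, with 196 of 600 (32.7%) called against 38.1% elsewhere. After centring the stretches were close, with 353 of 600 genes called near SCO3 and 345 of 600 near PHYB, beside 12667 of 22746 probe sets. AT3G19515, whose start lies 30.9 kb from that of SCO3, read 3.21, 3.58 and 3.25 in sco3, 6.05, 6.02 and 5.81 in phyb and 6.32, 6.48 and 6.51 in Col-0. Low in the sco3 arrays, it differed between the mutants by 2.61 ± 0.18 (adjusted p = 3.41e-07). Along chromosome 3, genes called in sco3 against Col-0 were counted in steps of 2 Mb. Their share was 8.46% to 11.3% from the left end of the chromosome to 2 Mb right of SCO3. Beyond 6 Mb to the right of SCO3 it was 1.62% to 4.90%. Sequence carried along with the sco3 mutation from another line and effects of the mutation itself cannot be told apart here.

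**Figure D5:**
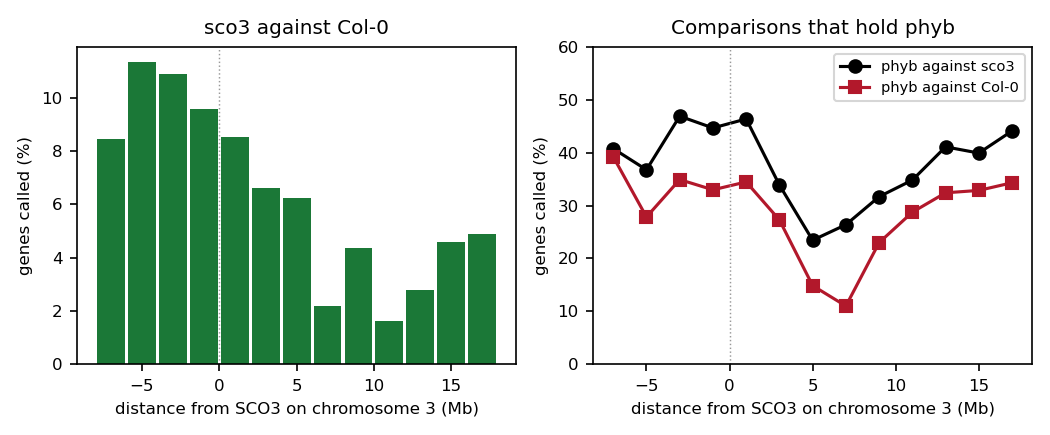
Share of measured genes called (%) in steps of 2 Mb along chromosome 3, by distance from the start of SCO3 (Mb, dotted line at 0), in sco3 against Col-0 (left) and in the comparisons that include phyb (right). The left panel is highest on and around the SCO3 arm and falls to its right, while the phyb curves dip between 4 and 8 Mb and rise again.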

How the data were processed

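The deposited values are log2 expression per probe set of Affymetrix ATH1 arrays as the authors made them. The submitters' processing notes list RMA and Partek, with no settings or versions. Values were used as deposited. The 64 control probe sets were left out. One gene was assigned to 13513 probe sets (59.4%), several to 503 and none to 8730; positions are those of RefSeq TAIR10.1. Where a gene had several probe sets, the one with the highest mean over the 12 arrays was used, and signal shared between close paralogs was not checked. Of 147 genes with several probe sets, 9 had probe sets called in opposite directions in phyb against sco3. One limma 3.58.1 model (R 4.3.3) with a mean per genotype was fitted to all 12 arrays (8 residual degrees of freedom); p-values are two-sided, adjusted by Benjamini-Hochberg per contrast and called under 0.05, and the fit was tested on simulated data. P-values set a difference of genotype means against the moderated spread between labelled biological replicates, pooled over all genotypes.

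The comparison, the gene lists and the tests were chosen with earlier results of these data known. Genes named were drawn by rule from the 10 largest non-overlapping called differences in each direction. Joint and opposite changes gave 6 genes per direction, ranked by the smaller change. The lists gave up to 4 called members each, by size, or the best expressed one, and each stretch around SCO3 and PHYB gave 5. Outside these rules, rbcL, atpA, atpH, EXPA16, TUA1 and XTH19 were named after their values were seen. Other exceptions are marked in the text. The lists for plastid protein import, hormone synthesis, cytosolic ribosomes, vascular tissue and epidermis had no named member. Lists are described by counts and medians, without a set test. Same-numbered replicates of the genotypes did not deviate together (correlations from -0.27 to 0.15), so they were not paired. Alternatives were array weights, a variance trend with robust fitting, centring, quantile normalization, leaving out the dimmest 40%, a replicate block, fewer genotypes and leaving out each of 9 arrays. Promoter motifs were not analysed here.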

Additional observations from a re-analysis of the deposited data

How the results depend on the processing

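The arrays limit precision by their number, 3 per genotype. With each array centred on its median, 9568 probe sets were higher in sco3, 4314 calls came from neither mutant's change against Col-0, 345 genes near PHYB were called, and the difference of HDA15 was -0.0062. Without the dimmest 40% of probe sets, 7379 of 13647 probe sets were called, and 1569 of these calls came from neither. Near PHYB 129 genes were called and near SCO3 214, with fewer features tested. Without the sco3phyb arrays, sco3 against Col-0 had 473 calls, 188 calls came from sco3 alone, and 176 and 90 probe sets moved the same and opposite ways, with fewer residual degrees of freedom. Array weights left 295 calls from sco3 alone, and the cause was not tested. A 2-fold minimum left 2354 calls.

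Leaving out 1 array gave 7163 to 10517 calls in phyb against sco3, 5958 to 8276 in phyb against Col-0 and 396 to 1463 in sco3 against Col-0. The calls from sco3 alone ranged from 166 to 646, the same-way probe sets from 161 to 544 and the opposite ones from 60 to 222. With the replicate block, 8835 probe sets were called (8614 shared with the unblocked fit), 324 moved the same way and 175 opposite ways, so no count moved by over 1.5 times; of the genes named, AT2G26800 lost its call (adjusted p = 0.0611) and AT5G42760 gained one in phyb against sco3 (adjusted p = 0.00621). The replicates share only a number. Promoter motifs were not run, for want of sequence in the reference used here.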
